A study of Rattus norvegicus with 24 samples.

Results

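The lungs compared here came from rats ventilated with a high tidal volume and a low positive end-expiratory pressure (HVT/LPEEP), with massive brain damage (BD, n = 6) and without brain damage (NBD, n = 6). They were chosen as every array whose labels give the high tidal volume setting, which was 12 of the 24 arrays of the series. All rats were adult male Wistar rats, anaesthetised with ketamine, tracheotomised and ventilated for hours, and RNA from the whole right lung of each rat was hybridised to its own array. In BD rats a balloon catheter was inflated in the epidural space through a burr hole. NBD rats had no opening of the skull, so the balloon and the surgery cannot be told apart in any difference below. Of the 6 BD HVT/LPEEP arrays, 2 came from rats that died before the planned end, and the labels do not say which. The authors left out all other rats that died. The other 12 rats, 6 BD and 6 NBD, were ventilated with a low tidal volume and a positive end-expiratory pressure set to keep the lung open (LVT/OLPEEP). They enter here only for the shared estimate of the spread and for the comparison of the BD difference between the settings. Rats are named below by the animal number in their labels.

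Acute brain damage is known to set off a surge of sympathetic activity and a systemic inflammatory response that reaches the lung, and large breaths at a low end-expiratory pressure stretch the lung tissue in addition. Inflammatory signals act in lung cells through NF-kappaB, a family of transcription factors that is held in the cytoplasm by inhibitor proteins and, once freed, switches on genes of chemokines, cytokines and endothelial adhesion molecules. Adrenal glucocorticoids act through the glucocorticoid receptor, a transcription factor that restrains many of the same genes and switches on a set of its own, among them Fkbp5, Per1, Tsc22d3 and Zbtb16.

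Values are log2 signals of 19239 features, of which 16592 carry 1 gene symbol and 2647 none, and a difference of 1 is a 2-fold change. Every array carried the same sorted values, between 5.73 and 14.53 with a median of 9.18, so that the arrays had been quantile normalised. The signals of Sftpa1, Sftpb and Sftpc (surfactant proteins), Ager (alveolar type I cells) and Scgb1a1 (club cells) stood at 99.9 percent or more of the ranking of all features by mean signal, and that of Pecam1 (endothelium) stood at 90.2 on the same scale. The arrays of the 12 rats correlated with the others of their group at 0.973 to 0.982 on average, except NBD rat 12 at 0.951. Among the LVT/OLPEEP arrays, that of BD rat 16 was lowest, at 0.955. No array repeated another. The precision of each value is limited by how many rats there were. In whole lung, fewer cells of a type and less RNA per cell cannot be told apart.

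Brain damage went with a broad change of the lung transcriptome under HVT/LPEEP. At an adjusted p under 0.05, 2771 features differed between BD and NBD lungs, 14.4% of all features tested (limma, Benjamini-Hochberg adjustment over all features). More were lower than higher in BD lungs: 1636 were lower (8.50%) and 1135 were higher (5.90%). The lower ones moved less far. Their median difference was -0.37 and that of the higher ones was 0.44, and at least a 2-fold change was reached by 28 lower and 90 higher features, and at least a 1.5-fold change by 224 lower (1.16%) and 339 higher ones (1.76%). On the other hand the lower ones were the more evenly shared among the rats. All 6 BD values lay below all 6 NBD values in 667 of the features called lower and above them in 336 of those called higher, together 5.21% of all features. Whatever the test gave, all BD values were below all NBD values in 701 features (3.64%) and above them in 356 (1.85%). The median difference over all features was -0.012. Below, a gene is called where its adjusted p is under 0.05, and the counts for groups of genes should be read against the percentages given here.

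**Figure D1:**
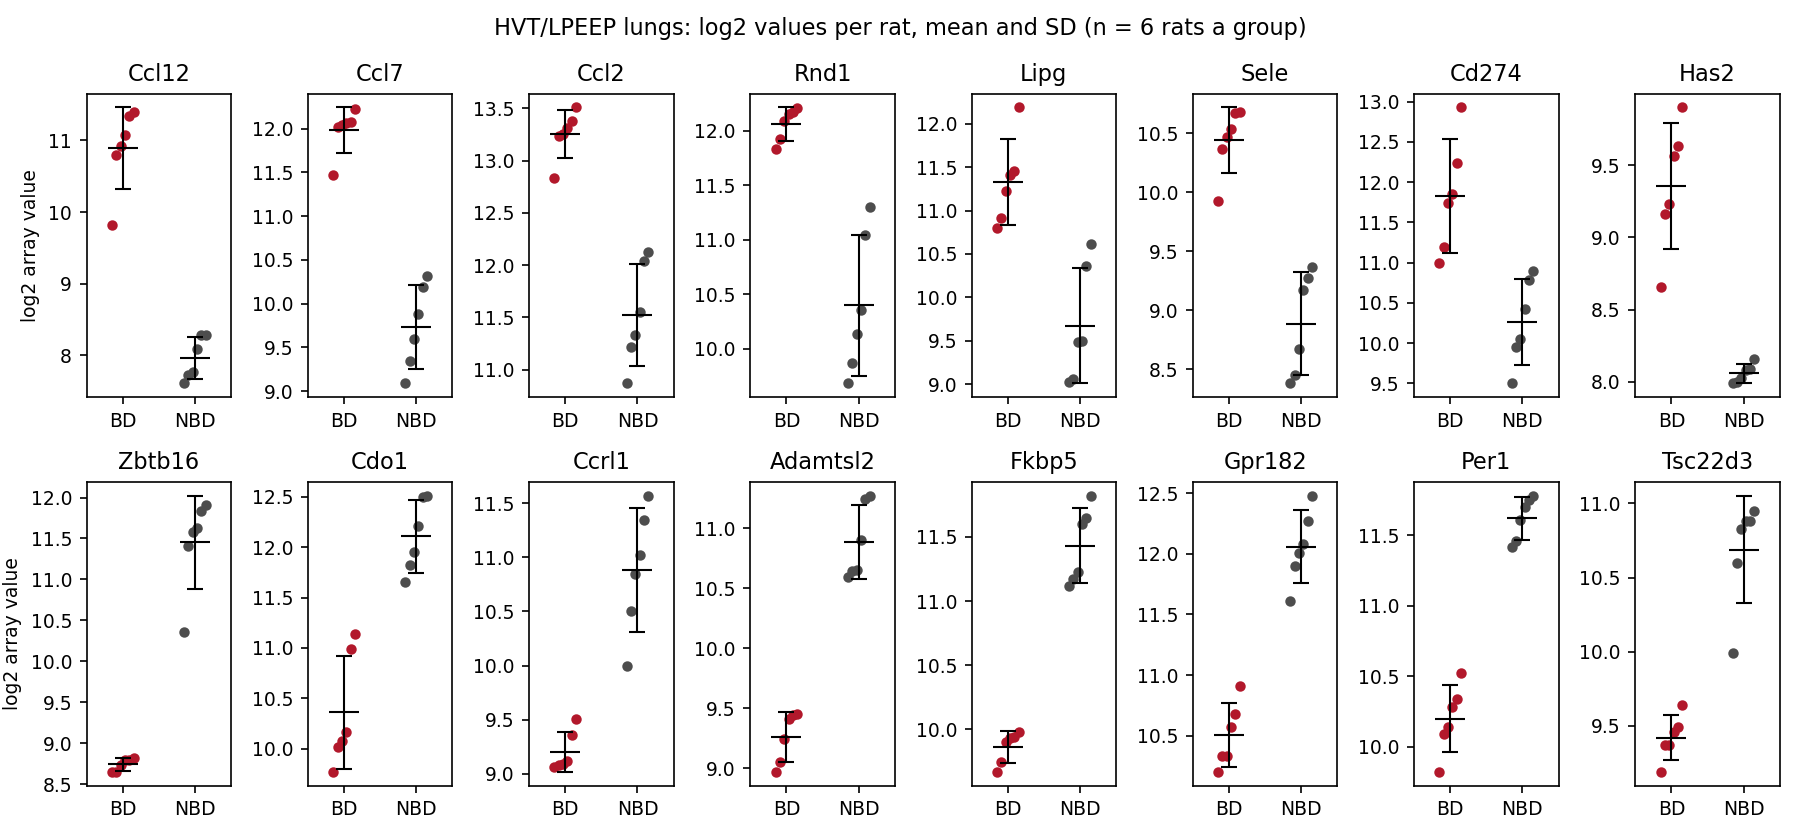
Log2 array value (vertical axis, each panel with its own range) of 8 genes that were higher and 8 that were lower in BD than in NBD lungs under HVT/LPEEP, with 1 point per rat and the mean and SD of each group of 6. The BD and NBD points do not overlap in any panel.

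Genes that glucocorticoids are known to induce held several of the largest negative differences. Of 33 measured genes of this kind, receptors included, 14 were lower in BD lungs, 2 were higher and 17 were not called, and the median difference was -0.30. Zbtb16, a zinc finger transcription factor, had the largest negative difference among all named features. Its log2 values ran from 8.65 to 8.82 in BD lungs (median 8.76) and from 10.36 to 11.91 in NBD lungs (median 11.61), a difference of -2.72 (SE 0.23, adjusted p = 2.46e-07). All 6 BD lungs were thus close to each other and far under the lowest NBD lung, which was that of rat 12. Fkbp5, a co-chaperone that lowers the hormone affinity of the receptor, ranged from 9.67 to 9.98 in BD lungs (median 9.92) and from 11.12 to 11.82 in NBD lungs (median 11.42; difference -1.57, SE 0.13, adjusted p = 2.46e-07). Per1, a clock gene with a direct response to glucocorticoids, ranged from 9.82 to 10.52 in BD lungs (median 10.21) and from 11.42 to 11.78 in NBD lungs (median 11.66; difference -1.42, SE 0.12, adjusted p = 2.46e-07). For Tsc22d3, which encodes the leucine zipper protein GILZ, the BD values lay between 9.19 and 9.64 and the NBD values between 9.99 and 10.95 (difference -1.27, SE 0.14, adjusted p = 6.77e-06). None of these 4 genes had overlapping groups. Among the other lower members were Klf9, Klf15, Foxo3, Hif3a, Hsd11b1 and Mertk.

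The 2 higher members of that list are also targets of inflammatory signals. Anxa1, the phospholipid-binding annexin A1, was higher by 0.47 (SE 0.12, adjusted p = 0.00939) and Nfkbia, the inhibitor IkappaB-alpha, by 0.44 (SE 0.10, adjusted p = 0.00562). The gene of the receptor itself, Nr3c1, looked up after the other values were seen, did not pass the test (difference 0.29, SE 0.16, adjusted p = 0.262), with 11.22 to 11.71 in BD and 10.49 to 11.63 in NBD lungs. Averaged over the 33 genes, each rat's mean relative to all 12 rats was between -0.24 and -0.11 in BD and between 0.09 and 0.31 in NBD lungs, so that each BD rat lay under each NBD rat. Of 20 measured clock genes Per1 and Tef, an output factor of the clock, were called lower and 1 gene higher. Over all features 8.50% were lower and 5.90% higher, so this list was near the share of all features. Bhlhe40, a repressor that inflammatory signals also induce, was called higher (difference 0.49, SE 0.10, adjusted p = 0.00282). At an unadjusted p under 0.05 in limma, 4 clock genes were lower and 3 higher, and the median difference was -0.05.

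Outside these lists, the named genes with the largest negative differences were a mixed set. Cdo1, the dioxygenase that starts cysteine breakdown, lay between 9.77 and 11.14 in BD lungs and between 11.65 and 12.51 in NBD lungs (difference -1.74, SE 0.26, adjusted p = 0.000133). Ccrl1 (now Ackr4), a scavenging receptor for chemokines, lay between 9.06 and 9.51 in BD lungs and between 10.00 and 11.57 in NBD lungs (difference -1.68, SE 0.26, adjusted p = 0.000194). Adamtsl2, a secreted matrix protein that binds fibrillin, lay between 8.97 and 9.45 in BD lungs and between 10.59 and 11.27 in NBD lungs (difference -1.62, SE 0.13, adjusted p = 2.46e-07). None of the 3 had overlapping groups, and the BD rats were close to each other except for Cdo1, where they were spread over more than a 2-fold range. Gpr182, a receptor of endothelial cells that takes up chemokines, was lower by 1.56 on the log2 scale, with 10.20 to 10.91 in BD and 11.61 to 12.48 in NBD lungs (adjusted p = 7.23e-07). Smaller but also without overlap were the differences of Rgs12 (-1.29), a regulator of G protein signalling, Tmem204 (-1.29), a membrane protein of endothelial junctions, RGD1563692 (now Mab21l4; -1.28) and Abhd15 (-1.24). Lass2 (now Cers2), the main ceramide synthase for very long chains, was lower by only 0.67, yet with an SE of 0.06 and an adjusted p = 7.23e-07: its BD values lay between 11.40 and 11.73 and its NBD values between 12.19 and 12.32.

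Genes that mark endothelial cells were next. Of 33 measured endothelial identity genes, 8 were lower, 1 was higher and 24 were not called, with a median difference of -0.25. Gata2, a transcription factor of endothelial and blood precursor cells, had BD values between 9.69 and 10.32 and NBD values between 10.55 and 11.11 (difference -0.75, SE 0.13, adjusted p = 0.000521). Ramp2, the partner of the adrenomedullin receptor, was lower by 0.81 (SE 0.18, adjusted p = 0.0046), and its 2 groups touched, with 9.80 to 10.80 in BD and 10.77 to 11.49 in NBD lungs. S1pr1, the sphingosine-1-phosphate receptor that tightens the endothelial barrier, was lower by 0.65 (adjusted p = 0.00402), with NBD rat 12 far under the other NBD rats. The other lower members were Acvrl1, Flt4, Stab1, Sox17 and Sox18. The higher one was Fli1, an ETS factor, by 0.28 (SE 0.08, adjusted p = 0.0254), and this call was lost without BD rat 11 (adjusted p = 0.0673) or BD rat 26 (adjusted p = 0.0503). The higher count was 2 without NBD rat 12 or BD rat 22.

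Notch signalling, by which neighbouring cells set each other's fate and which keeps endothelial cells quiescent, was split by role. Both called ligands were higher: Dll1 by 0.77 (SE 0.16, adjusted p = 0.00291; 9.68 to 10.82 in BD and 9.14 to 9.56 in NBD lungs) and Jag1 by 0.36 (SE 0.08, adjusted p = 0.00675). Among the lower ones were the receptor Notch4, the secretase subunits Psenen and Aph1b and the target genes Heyl and Hey1. Psenen was lower by 0.46 (SE 0.07, adjusted p = 0.00017), with 12.60 to 13.05 in BD and 13.14 to 13.43 in NBD lungs, and Notch4 by 0.60 (SE 0.13, adjusted p = 0.00272). Heyl was lower by 0.87 (SE 0.18, adjusted p = 0.00282), and Hey1, named after its values were seen, by 1.20 (SE 0.27, adjusted p = 0.0042). Among the 28 measured genes of the pathway 6 were lower and 2 higher. In BMP signalling, which shares Acvrl1 with the endothelial list, the inhibitory Smad6 was lower by 1.35 (SE 0.29, adjusted p = 0.00312; 9.62 to 11.00 in BD and 10.69 to 12.29 in NBD lungs, with overlap). Inhba, the activin A subunit, was higher by 1.23 (SE 0.23, adjusted p = 0.00103), as was Fst, the activin antagonist follistatin, by 0.56 (SE 0.10, adjusted p = 0.000976), both without overlap. In all, 4 of 40 BMP and TGF-beta genes were higher and 2 lower, beside 5.90% and 8.50% of all features. The median difference of this list was 0.01. The lower count was 6 without NBD rat 12, when lower members outnumbered the 4 higher ones, and 4 without BD rat 37 or BD LVT/OLPEEP rat 18.

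The alveolar epithelial genes that were called were lower, with 1 exception. Of 18 alveolar type I cell markers 6 were lower and none higher (median difference -0.16), and of 20 alveolar type II cell markers 6 were lower and none higher (median difference -0.19). Leaving out NBD rat 12 raised the type I count to 10. Rtkn2, a signalling protein of type I cells, was lower by 0.98 (SE 0.18, adjusted p = 0.000897) and Emp2, a membrane protein of caveolae-rich type I cells, by 0.49 (SE 0.06, adjusted p = 2.74e-05; 11.94 to 12.17 in BD and 12.33 to 12.69 in NBD lungs). Lgi3, a secreted protein of type II cells, was lower by 0.98 (SE 0.11, adjusted p = 4.31e-06), with 11.69 to 12.55 in BD and 12.92 to 13.26 in NBD lungs. Abca3, the lipid pump of the surfactant granules, was lower by 0.55 (adjusted p = 0.000326) and Sftpb, near the top of the signal range, by 0.24 (adjusted p = 0.0124), each without overlap. Scd (now Scd2), a desaturase of fatty acids, was lower by 0.49 (adjusted p = 0.00926).

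Genes of alveolar fluid and ion transport mostly showed the same direction where called, but this list shares members with the type I list. The epithelial sodium channel subunit Scnn1a lay between 10.74 and 11.72 in BD lungs (median 11.49) and between 12.23 and 12.49 in NBD lungs (median 12.37; difference -0.96, SE 0.14, adjusted p = 0.000115). The subunit Scnn1g was lower by 0.60 (adjusted p = 0.00145), the sodium pump subunit Atp1b1 by 0.45 (adjusted p = 0.00518) and the water channel Aqp5 by 0.36 (adjusted p = 0.00748). Scnn1g and Aqp5 were already counted among the lower type I markers. Nedd4l, a ubiquitin ligase that takes sodium channels off the membrane, was lower as well, by 0.56 (adjusted p = 0.00057). These were the 5 lower ones of 20 measured genes. The exception was Slc26a4, the anion exchanger pendrin, higher by 1.10 (SE 0.28, adjusted p = 0.0114), with 9.81 to 11.25 in BD and 8.64 to 10.17 in NBD lungs. Without BD rat 22, 2 genes of the list were higher.

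Enzymes of club cells and of the metabolism of foreign compounds were lower in 11 of 27 cases and higher in none, with a median difference of -0.34. There was 1 higher without NBD rat 19, NBD rat 10, BD rat 22 or BD LVT/OLPEEP rat 18. Fmo2, a flavin monooxygenase of the lung, was lower by 0.91 (adjusted p = 0.0014), and Por, which hands electrons to all cytochromes P450 of the endoplasmic reticulum, by 0.63 (SE 0.08, adjusted p = 2.84e-05; 10.79 to 11.21 in BD and 11.47 to 11.84 in NBD lungs). The carboxylesterase Ces3 (now Ces1d) was lower by 0.37 (adjusted p = 0.00333). The mean of this list was lowest by far in BD rat 11 (-0.61), against -0.25 to 0.03 in the other BD rats and -0.06 to 0.37 in NBD rats. No member of the 33 motile cilium genes was called by limma, and 1 of them was lower at an unadjusted p under 0.05.

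Transcription factors and signals of lung development were mostly lower where they were called. Of 37 genes of the Hedgehog and FGF pathways and lung lineage factors, 9 were lower and 1 higher. Some of the 9 were already counted among the lower type II markers. Tbx2, a T-box factor of lung mesenchyme, lay between 9.92 and 11.04 in BD lungs and between 11.24 and 11.61 in NBD lungs (difference -0.81, SE 0.15, adjusted p = 0.000927). Tcf21, which marks lipid-storing fibroblasts, was lower by 0.83 (adjusted p = 0.0018), Gata5 by 0.60 (adjusted p = 0.00275) and Smo, the signal transducer of Hedgehog, by 0.42 (adjusted p = 0.00252), all without overlap. Fgf10, the mesenchymal growth factor, was the higher one, by 0.34 (adjusted p = 0.0236), a call lost without NBD rat 12 (adjusted p = 0.0508) or BD rat 28 (adjusted p = 0.0582). The higher count was 2 without NBD rat 10 or BD LVT/OLPEEP rat 18. In Wnt signalling, 8 of 47 genes were lower and 3 higher. The frizzled receptor Fzd2 lay between 9.29 and 9.73 in BD lungs and between 9.94 and 10.44 in NBD lungs (difference -0.69, SE 0.10, adjusted p = 7.44e-05). Also lower were the receptor Fzd8 (-0.81, adjusted p = 0.00647), the co-receptor Ror2 (-0.42, adjusted p = 0.000427) and the agonist Rspo1 (-0.66, adjusted p = 0.00359). The 3 higher members, Dkk3, Fzd6 and Rspo3, were weak calls, with none left without NBD rat 12 or BD rat 26 and 1 left without NBD rat 33, NBD rat 19 or BD rat 28.

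Receptors for catecholamines and acetylcholine and the enzymes of cAMP turnover, through which the autonomic nerves act, were lower in 10 of 41 cases and higher in 2. Adra1b, the alpha-1B receptor, was lower by 0.69 (SE 0.12, adjusted p = 0.000656; 8.24 to 8.91 in BD and 8.80 to 9.49 in NBD lungs) and Adra2b, the alpha-2B receptor, by 0.23 (adjusted p = 0.0174). Pde4b, which breaks down cAMP, was higher by 0.63 (SE 0.14, adjusted p = 0.00494) and Crem, which encodes repressors and activators of cAMP-driven genes, by 0.65 (SE 0.14, adjusted p = 0.00265), both without overlap. The lower count was 5 without NBD rat 33 or NBD rat 19 and 6 without BD rat 28, BD rat 24 or BD rat 22.

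**Figure D2:**
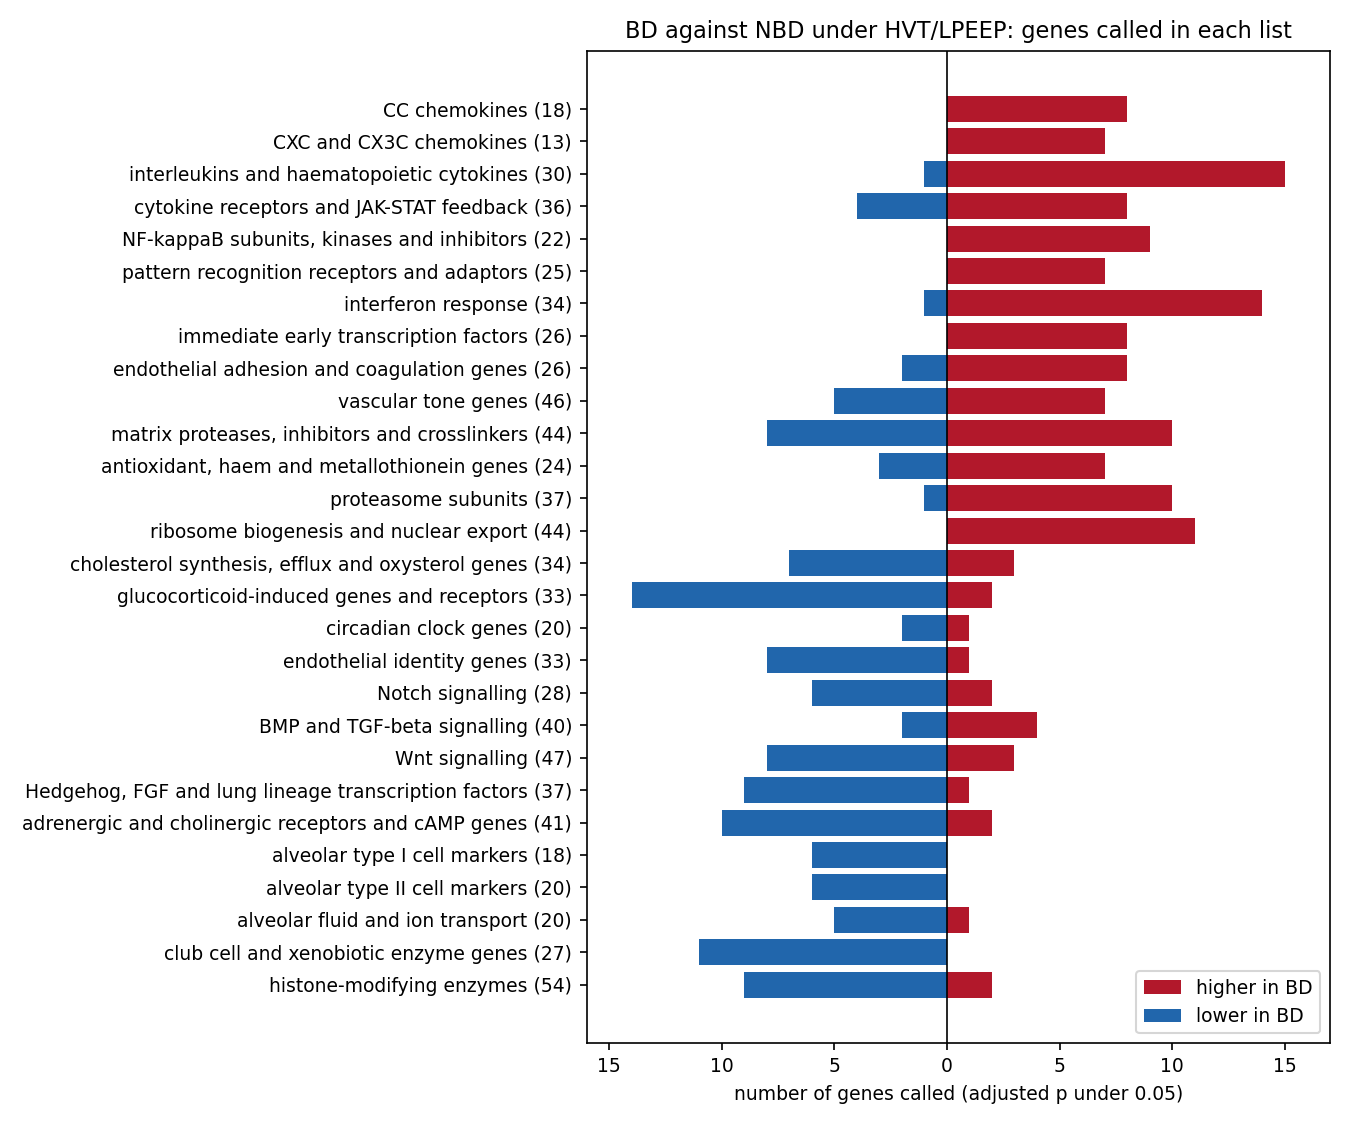
Number of genes called in each of 28 gene lists (horizontal axis, adjusted p under 0.05), with those higher in BD than in NBD lungs to the right and those lower to the left. The number of measured genes follows each list name; chemokines, cytokines and NF-kappaB genes lie on the higher side and glucocorticoid-induced, epithelial and xenobiotic enzyme genes on the lower side.

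The higher side was led by chemokines, the secreted proteins that draw leukocytes into tissue. Of 18 CC chemokines, which attract mainly monocytes and lymphocytes, 8 were higher and none lower (median difference 0.62). Ccl12, a ligand of the monocyte receptor Ccr2, had the largest difference of all named features: its values ran from 9.82 to 11.39 in BD lungs (median 10.99) and from 7.61 to 8.29 in NBD lungs (median 7.93), a difference of 2.93 (SE 0.30, adjusted p = 1.7e-06). Ccl7, from the same cluster of genes, ran from 11.47 to 12.22 in BD lungs and from 9.09 to 10.32 in NBD lungs (difference 2.24, SE 0.32, adjusted p = 9.63e-05), and its lowest BD value was that of rat 37, with the other 5 BD rats at 12.02 or more. Ccl2, also a ligand of Ccr2, ran from 12.83 to 13.51 in BD lungs and from 10.87 to 12.13 in NBD lungs (difference 1.73, SE 0.29, adjusted p = 0.000386). These 3 ligands separated the groups completely. Ccl4, which attracts monocytes and T cells, did not: it was higher by 1.78 (SE 0.38, adjusted p = 0.00317), but 2 of the BD rats lay within the NBD range. Ccl3, Ccl9, Ccl20 and Ccl22 were the other higher ones.

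Of 13 CXC and CX3C chemokines 7 were higher and none lower (median difference 0.63). Cxcl11 and Cxcl9, which draw T cells and are induced by interferon-gamma, were both higher. Cxcl11 had a difference of 2.45 (SE 0.57, adjusted p = 0.0058; 9.95 to 13.18 in BD and 7.86 to 10.05 in NBD lungs) and Cxcl9 of 1.39 (SE 0.38, adjusted p = 0.0177). Cxcl1, which draws neutrophils, was higher by 1.56 (SE 0.33, adjusted p = 0.00275; 11.13 to 12.93 in BD and 9.80 to 11.79 in NBD lungs), and Cxcl6 by 0.63 (SE 0.12, adjusted p = 0.00151) without overlap. The large SEs of Cxcl11 and Cxcl9 came with BD values spread over more than 4-fold, and only 4 members of the list were called without NBD rat 34, BD rat 11 or BD rat 26. Cxcl10, the third of the interferon-induced ligands and named after its values were seen, was higher by 1.59 (SE 0.47, adjusted p = 0.0254), with an adjusted p of 0.0604 to 0.0689 without NBD rat 34, NBD rat 19, BD rat 11 or BD rat 26.

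Promoters are printed for the 6 genes with the largest positive differences whose promoter window holds the kappaB motif, GGANTTTCC on either strand, since NF-kappaB binds sequences of this form and most of the 6 are secreted inflammatory mediators. The stretches are from RefSeq (build GRCr8), each 69 bases long, 5′ to 3′ on the strand of the gene, with the match in capitals.
Cxcl11: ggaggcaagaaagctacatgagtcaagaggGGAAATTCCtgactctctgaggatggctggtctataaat
Il6: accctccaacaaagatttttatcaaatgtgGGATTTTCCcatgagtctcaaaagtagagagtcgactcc
Tfpi2: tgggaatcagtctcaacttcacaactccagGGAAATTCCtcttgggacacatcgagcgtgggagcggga
Irg1: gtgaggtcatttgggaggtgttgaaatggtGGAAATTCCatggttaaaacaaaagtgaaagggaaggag
Cxcl10: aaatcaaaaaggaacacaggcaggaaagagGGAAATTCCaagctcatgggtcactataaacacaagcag
Cxcl1: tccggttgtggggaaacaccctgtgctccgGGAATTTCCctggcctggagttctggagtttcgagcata
They lie at chr14:15973625-15973693 (Cxcl11, + strand), chr4:5894604-5894672 (Il6, - strand), chr4:32941376-32941444 (Tfpi2, - strand), chr15:86286462-86286530 (Irg1, + strand), chr14:15988850-15988918 (Cxcl10, + strand) and chr14:17479366-17479434 (Cxcl1, - strand). The match begins at position -73 from the transcript start in Cxcl11, -67 in Il6, -138 in Tfpi2, -47 in Irg1, -186 in Cxcl10 and -83 in Cxcl1. The same match, GGAAATTCC, stands in 4 of the 6, and Cxcl1 carries its reverse complement.

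Over whole promoter windows of 300 bases, the motif stood in 35 of 878 called higher genes with a promoter in the table (3.99%), in 12 of 1322 called lower genes (0.908%) and in 1.35% of the 14768 measured genes with a promoter, against 1.26% of all 27457 promoters. Among the higher CXC and CX3C chemokines 4 of 6 with a promoter held it, namely Cxcl1, Cxcl6, Cxcl10 and Cxcl11, and among the higher CC chemokines none of 5 did. The E-box CACGTG, which clock factors bind, stood in 9.79% of the higher and 8.47% of the lower genes, against 7.77% of the measured genes with a promoter and 6.65% of all promoters. For the AP-1 motif TGANTCA these shares were 7.63% and 4.84%, against 6.37% and 7.33%, and for the cAMP response motif TGACGTCA 3.76% and 2.27%, against 2.42% and 1.91%. All motifs were searched on both strands. A match describes these letters only, and binding was not measured.

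Cytokines followed the chemokines: 15 of 30 interleukins and haematopoietic cytokines were higher and 1 was lower (median difference 0.38). When the 40% of features with the dimmest signals were left out, 7 of the list were called higher, with members below that cut counted as not called. Il6, the interleukin of the acute phase response and named here after its values were seen, ran from 10.58 to 12.79 in BD lungs (median 11.63) and from 8.02 to 11.39 in NBD lungs (median 9.01; difference 2.35, SE 0.59, adjusted p = 0.00966). Its NBD values were spread over more than 8-fold, and 4 of the 6 BD rats lay above all of them. Il1a, an alarm cytokine released by damaged cells, was higher by 1.68 (SE 0.26, adjusted p = 0.000194), with BD rat 37 at 10.05, inside the NBD range of 9.27 to 10.34, and the other BD rats at 11.27 to 11.86. Lif, a cytokine of the Il6 family, was higher by 1.48 (SE 0.22, adjusted p = 0.000154) and the anti-inflammatory Il10 by 1.12 (SE 0.20, adjusted p = 0.000758), both without overlap. Tslp, an epithelial cytokine, was higher by 0.93 (SE 0.13, adjusted p = 9.63e-05). Also called were Tnf, Il1b, Ifng, Csf3, Il1rn, Il12a, Il19, Il24, Lta and Clcf1. The lower one was Ctf1, cardiotrophin-1, by 0.21 (adjusted p = 0.0465), a call lost in 17 of the 24 fits that left out 1 rat, with an adjusted p up to 0.111 without BD rat 22.

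Of 36 cytokine receptors, Janus kinases and feedback inhibitors 8 were higher and 4 lower. The kinase Jak2, which carries the signals of Il6-type cytokines and of interferon-gamma, was higher by 1.05 (SE 0.15, adjusted p = 8.51e-05), with 12.07 to 12.60 in BD and 10.94 to 11.76 in NBD lungs. Of the feedback inhibitors, Socs1 had a difference of 1.26 (SE 0.29, adjusted p = 0.0058) and Socs3 one of 0.99 (SE 0.23, adjusted p = 0.00634), and the survival kinase Pim1, a target of STAT factors, was higher by 0.77 (SE 0.17, adjusted p = 0.00419). The lower ones were the kinase Tyk2 and the receptors Lifr (-0.63, adjusted p = 0.0134), Ifngr1 (-0.30, adjusted p = 0.0147) and Il11ra1 (-0.28, adjusted p = 0.0252). Between 2 and 7 members were lower when a rat was left out, with 2 without NBD rat 12, BD rat 11 or BD rat 26 and 7 without NBD rat 10.

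Within the NF-kappaB system, 9 of 22 subunits, kinases and inhibitors were higher and none lower (median difference 0.44). Rel, the subunit c-Rel, lay between 11.04 and 11.69 in BD lungs and between 10.45 and 10.61 in NBD lungs (difference 0.82, SE 0.11, adjusted p = 5.88e-05). Nfkb1, which encodes p105 and p50, lay between 11.76 and 12.13 in BD lungs and between 11.17 and 11.51 in NBD lungs (difference 0.69, SE 0.09, adjusted p = 2.85e-05). Each of these 2 subunits separated the groups. Birc2, a ubiquitin ligase of the pathway, was higher by 0.71 (adjusted p = 9.05e-05) and the inhibitor Tnip3 by 1.11 (SE 0.18, adjusted p = 0.000241). The inhibitors Nfkbia, Nfkbie and Nfkbiz were all called, so that activators and inhibitors were higher together. Of 25 receptors and adaptors that sense microbes and tissue damage 7 were higher and none lower, and without BD rat 37 there were 11 higher and 1 lower. They included Nod2 (0.65, adjusted p = 0.00349), its kinase Ripk2 (0.98, adjusted p = 0.00102), the inflammasome sensor Nlrp3 (0.77, adjusted p = 0.00534) and Tlr2 (1.04, adjusted p = 0.00663). Irg1 (now Acod1), the enzyme that makes itaconate in activated macrophages and named after its values were seen, was higher by 2.08 (SE 0.50, adjusted p = 0.00783; 11.49 to 13.17 in BD and 9.03 to 11.75 in NBD lungs).

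Genes that cells switch on within minutes of a stimulus were higher in 8 of 26 cases and lower in none (median difference 0.45). Nr4a3, an orphan nuclear receptor, lay between 9.58 and 10.84 in BD lungs and between 8.69 and 9.51 in NBD lungs (difference 1.00, SE 0.19, adjusted p = 0.00107). The AP-1 subunit Fosl1 was higher by 1.09 (adjusted p = 0.00386), Ier3 by 0.92 (adjusted p = 0.00909) and Ier5 by 0.51 (adjusted p = 0.00741), each with overlap. NBD rat 12 stood apart with a mean of 0.39 over the list, against -0.47 to -0.17 in the other NBD rats and -0.01 to 0.64 in BD rats. Without it, 14 members were called. The count was 4 without NBD rat 33 and 5 without BD rat 11 or BD rat 28.

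The interferon response varied widely from rat to rat. Of 34 measured genes 14 were higher and 1 lower, and their median difference of 0.83 was above that of any other list described here. Irf1, a transcription factor induced by interferon-gamma, lay between 11.50 and 13.10 in BD lungs and between 10.58 and 11.74 in NBD lungs (difference 1.26, SE 0.26, adjusted p = 0.00202), and 5 of the 6 BD rats were above all NBD rats. Ifit3, an antiviral protein, was higher by 1.21 (SE 0.30, adjusted p = 0.01), Parp14 by 1.09 (SE 0.27, adjusted p = 0.00979) and the myeloid factor Irf8 by 0.69 (SE 0.17, adjusted p = 0.0103). None of the 14 separated the groups completely. The mean over the list ran from -0.62 in BD rat 37 to 1.21 in BD rat 11, and from -0.66 to 0.05 in NBD rats, so that BD rat 37 lay among the lowest of all 12. Without BD rat 37, 24 members were higher; without NBD rat 34 or BD rat 11, 5 were, without NBD rat 33, NBD rat 19, BD rat 26 or BD rat 22, 8, and without BD rat 28, 9. Irf3, a factor that starts interferon production, was the lower member, by 0.41 (adjusted p = 0.0434); its call was lost in 12 of the 24 fits that left out 1 rat, with an adjusted p up to 0.105 without BD rat 24. Samhd1, an interferon-induced nuclease outside this list, and Cd274, which encodes the checkpoint ligand PD-L1, were higher without overlap: Samhd1 by 1.27 (SE 0.31, adjusted p = 0.00896) and Cd274 by 1.56 (SE 0.33, adjusted p = 0.00291; 11.00 to 12.93 in BD and 9.50 to 10.90 in NBD lungs).

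**Figure D3:**
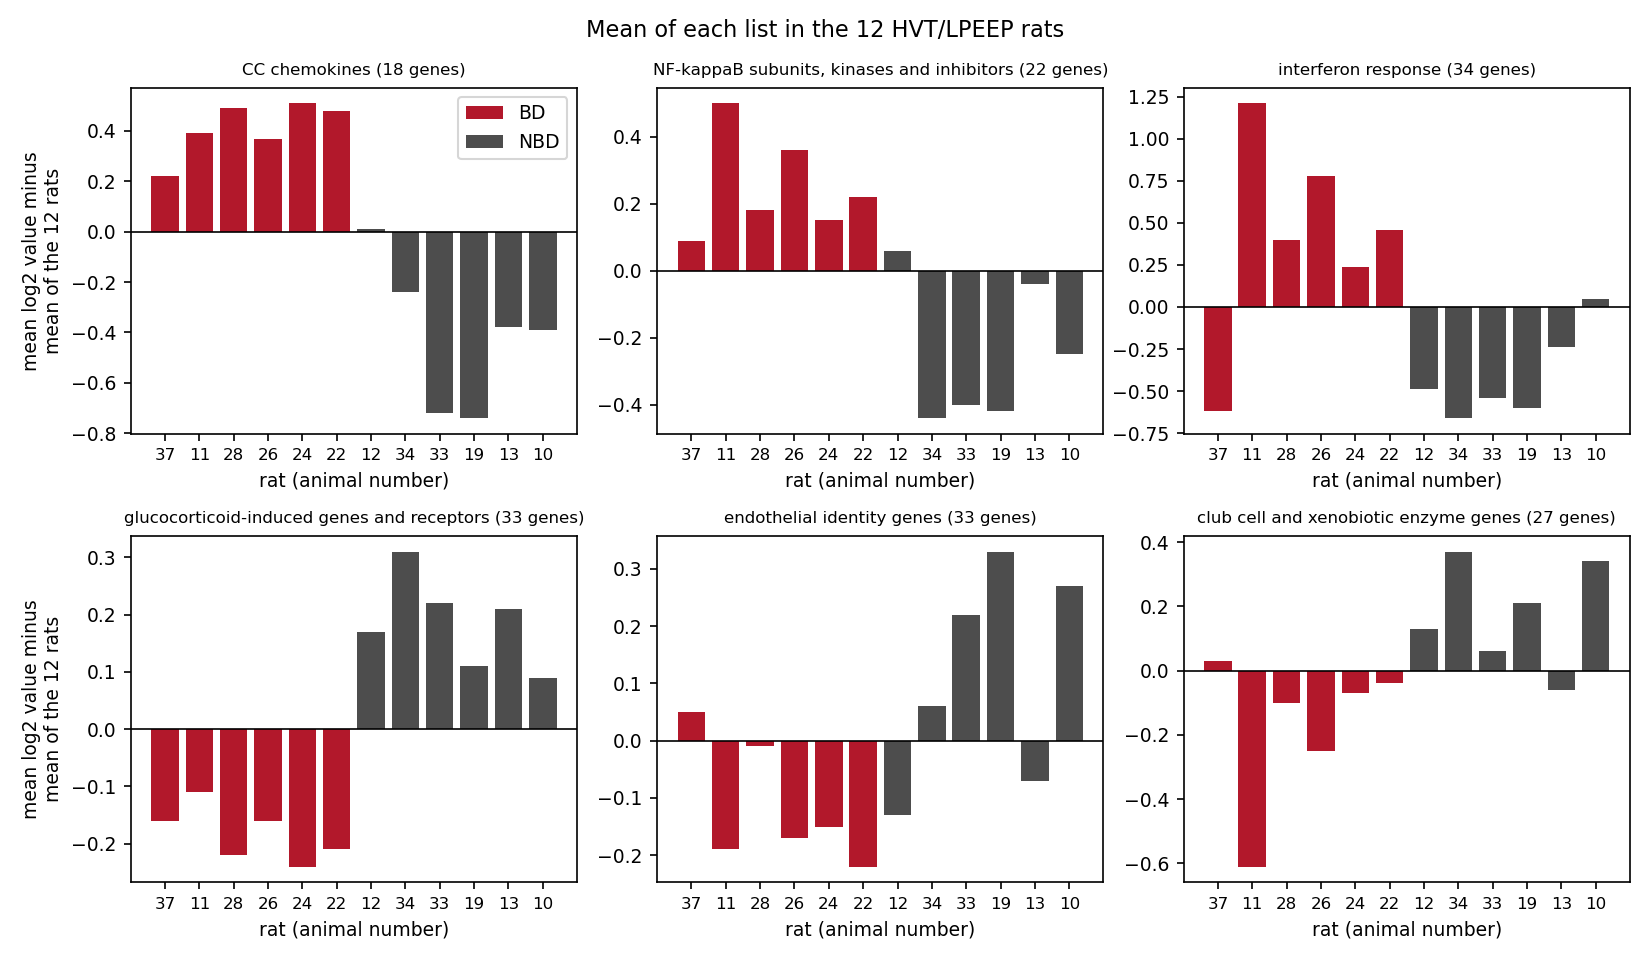
Mean log2 value of 6 gene lists in each of the 12 HVT/LPEEP rats, relative to the mean of the 12 (vertical axis; rat numbers on the horizontal axis, BD rats left of NBD rats). BD and NBD rats do not overlap for CC chemokines, NF-kappaB genes and glucocorticoid-induced genes, whereas BD rat 37 lies among the NBD rats for the interferon response.

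Endothelial genes of leukocyte adhesion and coagulation were higher in 8 of 26 cases and lower in 2. Sele, or E-selectin, which only activated endothelium makes, lay between 9.93 and 10.68 in BD lungs (median 10.50) and between 8.38 and 9.37 in NBD lungs (median 8.92; difference 1.56, SE 0.37, adjusted p = 0.00633). Vcam1, which holds monocytes and lymphocytes, lay between 12.14 and 12.90 in BD lungs and between 10.94 and 12.12 in NBD lungs (difference 1.19, SE 0.25, adjusted p = 0.003). Tfpi2, an inhibitor of serine proteases, was higher by 2.35 (SE 0.40, adjusted p = 0.000437; 10.27 to 12.57 in BD and 8.46 to 10.41 in NBD lungs), and S100a10, a cofactor of plasmin formation, by 0.36 (SE 0.08, adjusted p = 0.0026). Every BD lung was above every NBD lung in Sele and Vcam1, while 2 endothelial proteins were lower: Icam2 by 0.70 (SE 0.12, adjusted p = 0.00057) and Vwf, von Willebrand factor, by 0.48 (SE 0.13, adjusted p = 0.0174). Without NBD rat 34, NBD rat 33 or BD rat 26, 5 members were higher. Lipg, the endothelial lipase, was higher by 1.66 (SE 0.29, adjusted p = 0.000501), with 10.80 to 12.19 in BD and 9.03 to 10.61 in NBD lungs, and Rnd1, a small GTPase that loosens the actin skeleton, by 1.67 (SE 0.31, adjusted p = 0.00105), with 11.83 to 12.21 in BD and 9.68 to 11.30 in NBD lungs.

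Genes of vascular tone were called in both directions, with 7 of 46 higher and 5 lower, beside 5.90% and 8.50% of all features. Their median difference was -0.01. Higher were Arg1, which competes with nitric oxide synthases for arginine (1.11, SE 0.18, adjusted p = 0.00024; 9.31 to 10.45 in BD and 8.38 to 8.94 in NBD lungs), Gch1, which makes the cofactor of nitric oxide synthesis (1.05, SE 0.17, adjusted p = 0.00024), Nos2, Adm and the prostaglandin genes Ptgs2, Ptges and Ptger4. Lower were Agtr1a, the type 1 angiotensin receptor (-0.64, SE 0.11, adjusted p = 0.000574), Ace, the converting enzyme on lung capillaries (-0.50, SE 0.10, adjusted p = 0.00123), Ptgs1, Ece1 and Ramp2. Ace and Agtr1a separated the groups, with Ace at 12.44 to 12.92 in BD and 13.05 to 13.39 in NBD lungs. The lower count was 3 without NBD rat 34 or BD rat 11. Matrix genes were split in a similar way, with 10 of 44 higher and 8 lower. The hyaluronan synthase Has2 lay between 8.66 and 9.90 in BD lungs and between 7.99 and 8.16 in NBD lungs, under the median signal of all features (difference 1.30, SE 0.14, adjusted p = 4.99e-06). Both hyaluronidases were lower without overlap, Hyal1 with a difference of -0.82 (SE 0.21, adjusted p = 0.0114) and Hyal2 with one of -0.53 (SE 0.10, adjusted p = 0.00082). The aggrecan-cleaving protease Adamts5 was higher by 1.07 (SE 0.15, adjusted p = 6.85e-05) and Adamts1 by 0.61 (adjusted p = 0.00117), while Mmp11 was lower by 0.37 (adjusted p = 0.00663). The lower count of the matrix list was 5 without NBD rat 34, BD rat 28 or BD rat 26.

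Antioxidant genes also went both ways, with 7 of 24 higher and 3 lower, of which 6 and 2 did not overlap. Slc7a11, the cystine importer, lay between 10.27 and 11.58 in BD lungs and between 9.16 and 10.05 in NBD lungs (difference 1.41, SE 0.22, adjusted p = 0.00023). Txnrd1, thioredoxin reductase, was higher by 0.78 (SE 0.14, adjusted p = 0.00066), Gclm, of glutathione synthesis, by 0.69 (adjusted p = 0.00162), and Nfe2l2, the factor NRF2 that induces all 3, by 0.40 (SE 0.07, adjusted p = 0.00066). Lower were the secreted enzymes Sod3 (-0.50, SE 0.13, adjusted p = 0.0123) and Gpx3 (-0.65, SE 0.18, adjusted p = 0.0173), and the peroxiredoxin Prdx6 (-0.28, SE 0.06, adjusted p = 0.00297). Of 30 genes of hypoxia and glycolysis Hif1a and Adm were higher and none was lower. The higher count was 4 without NBD rat 12 and 1 without NBD rat 34, NBD rat 33, NBD rat 19, NBD rat 10, BD rat 11 or BD rat 26, and 1 gene was lower without NBD rat 12, NBD rat 33, NBD rat 19, NBD rat 10, BD rat 24, BD LVT/OLPEEP rat 18 or BD LVT/OLPEEP rat 16. Hif1a, the oxygen-regulated factor, was higher by 0.75 (SE 0.09, adjusted p = 1.87e-05; 12.17 to 12.50 in BD and 11.30 to 11.83 in NBD lungs).

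Genes of sterol handling moved in small steps except for 1. Cyp7b1, an oxysterol hydroxylase that takes part in making an attractant of B cells, was higher by 1.36 (SE 0.29, adjusted p = 0.00312), with 10.78 to 11.44 in BD and 9.30 to 10.69 in NBD lungs. Hmgcs1 and Idi1, of early cholesterol synthesis, were higher by 0.48 (adjusted p = 0.00105) and 0.72 (adjusted p = 0.00419), and 7 of 34 measured genes were lower, such as Cdig2 (now Npc1), the lysosomal cholesterol exporter, by 0.62 (SE 0.10, adjusted p = 0.000224). Genes of ribosome biogenesis and proteasome subunits were on the higher side. Of 30 measured ribosomal proteins 2 were higher and none lower, near the 5.90% of all features that were higher. Of 44 genes of ribosome biogenesis 11 were higher and none lower (median difference 0.26), led by the helicase Ddx52 (0.65, adjusted p = 0.000871) and Utp18 (0.53, adjusted p = 0.00222). Of 37 proteasome subunits 10 were higher and 1 lower (median difference 0.19), with Psma5 (0.57, SE 0.08, adjusted p = 9.8e-05) and Psma2 (0.58, SE 0.10, adjusted p = 0.00037) not overlapping, and 6 higher without NBD rat 19. The lower one, Psmd2, by 0.17 (adjusted p = 0.0487), lost its call in 17 of the 24 fits that left out 1 rat, with an adjusted p up to 0.116 without BD rat 11. No heat shock chaperone of 20 was called by limma, with 2 higher at an unadjusted p under 0.05 and 1 called higher without NBD rat 13. The 3 further genes with the smallest p on the higher side were Slc30a1, a zinc exporter (0.72, SE 0.07, adjusted p = 7.23e-07), B3gnt2, a glycosyltransferase (0.68, SE 0.07, adjusted p = 1.37e-06), and Mapk6, an atypical kinase (0.91, SE 0.10, adjusted p = 3.58e-06), none of them with overlap.

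Histone-modifying enzymes were lower in 9 of 54 cases and higher in 2. Hdac11, a deacetylase, lay within 8.56 to 8.67 in BD lungs and 8.85 to 9.01 in NBD lungs, a small difference of -0.30 with an SE of 0.04 (adjusted p = 9.76e-05). Ezh1, a methyltransferase of Polycomb complexes in resting cells, was lower by 0.64 (SE 0.09, adjusted p = 6.46e-05) and Sirt2 by 0.33 (adjusted p = 0.00166). The 2 higher ones belong to the same Polycomb complex: Eed by 0.49 (SE 0.09, adjusted p = 0.000538) and Ezh2, the form of dividing cells, by 0.40 (SE 0.11, adjusted p = 0.0196), whose call was lost without BD rat 22 (adjusted p = 0.053). The lower count was 5 without NBD rat 34, and the higher count was 4 without NBD rat 12.

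Markers of cells that can enter or contaminate a lung sample moved in part. Of 24 neutrophil markers 3 were higher, namely Ncf1, a subunit of the oxidase (0.58, adjusted p = 0.0137), and S100a9 and S100a8, the calprotectin subunits (0.76, adjusted p = 0.0132, and 0.97, adjusted p = 0.0246), and 1 was lower, Il8ra (now Cxcr1; -0.56, adjusted p = 0.0339). The mean of that list ran from -0.04 to 0.47 in BD rats and from -0.57 to 0.44 in NBD rats, where rat 12 was highest. Without NBD rat 12 or NBD rat 13, 6 were higher, and 5 without BD rat 37. The S100a8 call was lost without NBD rat 34 (adjusted p = 0.0683), NBD rat 33 (0.0636) or BD rat 22 (0.0621), and that of Il8ra in 7 of the 24 fits that left out 1 rat, with an adjusted p up to 0.0744 without NBD rat 12. Of 22 macrophage and monocyte markers 3 were higher, namely Aif1 (0.64, adjusted p = 0.00433), Msr1 (0.68, adjusted p = 0.016) and Fcgr1a, an Fc receptor, and 2 were lower, Mrc1 (-0.55, adjusted p = 0.0255), of alveolar macrophages, and Csf1r (-0.37, adjusted p = 0.0413). The median difference of this list was 0.07, and over all features 5.90% were called higher and 8.50% lower. Leaving out 1 rat removed the Mrc1 call in 6, the Csf1r call in 8 and the Fcgr1a call in 6 of the 24 fits, with adjusted p values up to 0.0658 for Mrc1 (without BD rat 11) and 0.101 for Csf1r (without BD rat 28).

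Of 29 T, B and NK cell markers 7 were higher and none lower, or 4 without NBD rat 19 or BD rat 22. The 7 were Gzmb, Gzma, Prf1, Klrk1, Tbx21, Cd8a and the B cell marker Ms4a1. Gzmb, granzyme B, was higher by 1.30 (SE 0.24, adjusted p = 0.000933; 10.69 to 12.43 in BD and 10.06 to 10.80 in NBD lungs), Tbx21, the factor T-bet, by 0.83 (SE 0.17, adjusted p = 0.00208), the receptor Klrk1 by 1.15 (SE 0.29, adjusted p = 0.0105) and Prf1, perforin, by 0.71 (SE 0.17, adjusted p = 0.0064). Of 15 platelet markers Selp, Pf4 and Plek were higher, a count that was 8 without NBD rat 12, 6 without BD rat 37 and 1 without NBD rat 34, NBD rat 33 or NBD rat 19. Selp was already counted among the higher endothelial adhesion genes. Its call was lost in 4 and that of Pf4 in 5 of the 24 fits that left out 1 rat. None of 13 erythroid, 14 skeletal muscle, 13 cardiac muscle and 9 mesothelial markers was called by limma. At an unadjusted p under 0.05 the first 3 of these lists held 0 genes and the mesothelial list 1 higher. Of 13 smooth muscle markers Mylk, Smtn and Cspg4 were lower and none was higher, beside 8.50% of all features lower. Of 14 mast cell and basophil markers 1 was lower, Gata2, already counted among the endothelial genes, and none was higher. Cardiac markers were high in 2 lungs, with a list mean of 2.14 in BD rat 37 and 1.64 in NBD rat 34, and the part of such tissue in other differences was not tested. Of 15 fibroblast markers 3 were lower, with Pdgfra first (-0.59, adjusted p = 0.00158), and 1 was higher, Fgf10. The median difference of the fibroblast list was -0.03. The part of a shift in cell types in the differences above was not tested.

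Under LVT/OLPEEP, in other rats, the same comparison of BD with NBD lungs called 142 features (0.738%), 40 higher (0.208%) and 102 lower (0.530%). Calls in the same direction under both settings numbered 23 higher and 87 lower features. The direction was shared more widely. Of the 1135 higher features 75.9% had a positive difference under LVT/OLPEEP, as had 51.3% of all features, and 82.4% of the 1636 lower ones had a negative one. Their sizes were smaller: the median difference was 0.10 for the features higher and -0.11 for those lower under HVT/LPEEP, which had been selected by their size under HVT/LPEEP. The 28 lower features with at least a 2-fold change kept a median of -0.75 under LVT/OLPEEP (-1.27 under HVT/LPEEP) and the 90 higher ones a median of 0.24 (1.25 under HVT/LPEEP).

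Glucocorticoid-induced genes were among those called under both settings. Fkbp5 was lower by 1.66 (SE 0.13, adjusted p = 1.97e-07), Zbtb16 by 2.25 (SE 0.23, adjusted p = 9.91e-06), Per1 by 1.21 (SE 0.12, adjusted p = 9.91e-06) and Tsc22d3 by 1.02 (SE 0.14, adjusted p = 0.00072) in BD LVT/OLPEEP lungs, and 8 of the 33 list members were lower and none higher. Adamtsl2, Gpr182, Por, Nedd4l and Lass2 were also lower, and Ccl12 (1.5, SE 0.30, adjusted p = 0.0185), Slc30a1, Mapk6 and B3gnt2 also higher. The chemokines and cytokines were less evenly placed. Ccl7 and Il6 had differences of 1.11 and 0.97 under LVT/OLPEEP that did not pass the test, those of Lipg and Cd274 were 0.01 each, and those of Cxcl11 and Cxcl9 were -1.0 and -1.32. The median of the interferon list was -0.16 under LVT/OLPEEP, with no member called by limma in that comparison.

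A test of the difference between the 2 BD differences called only 2 features, 0.0104% of all, although 2629 had an unadjusted p under 0.05. Fzd2 had a BD difference of -0.69 under HVT/LPEEP and 0.15 under LVT/OLPEEP, and the difference between them was -0.84 (SE 0.14, adjusted p = 0.0455). Trim3, a ubiquitin ligase known from neurons, had -0.56 under HVT/LPEEP, with 10.70 to 10.90 in BD and 11.23 to 11.50 in NBD lungs, and -0.08 under LVT/OLPEEP (difference -0.48, SE 0.08, adjusted p = 0.0455). For every other gene named here, a call under HVT/LPEEP alone is therefore not shown to be particular to that setting. The count rested on single rats. It was 134 without BD HVT/LPEEP rat 37, 16 without BD LVT/OLPEEP rat 14, 4 without NBD LVT/OLPEEP rat 29, 3 without NBD HVT/LPEEP rat 13, 1 without BD HVT/LPEEP rat 24, BD LVT/OLPEEP rat 16 or NBD LVT/OLPEEP rat 5, and 0 without any of the other 17.

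**Figure D4:**
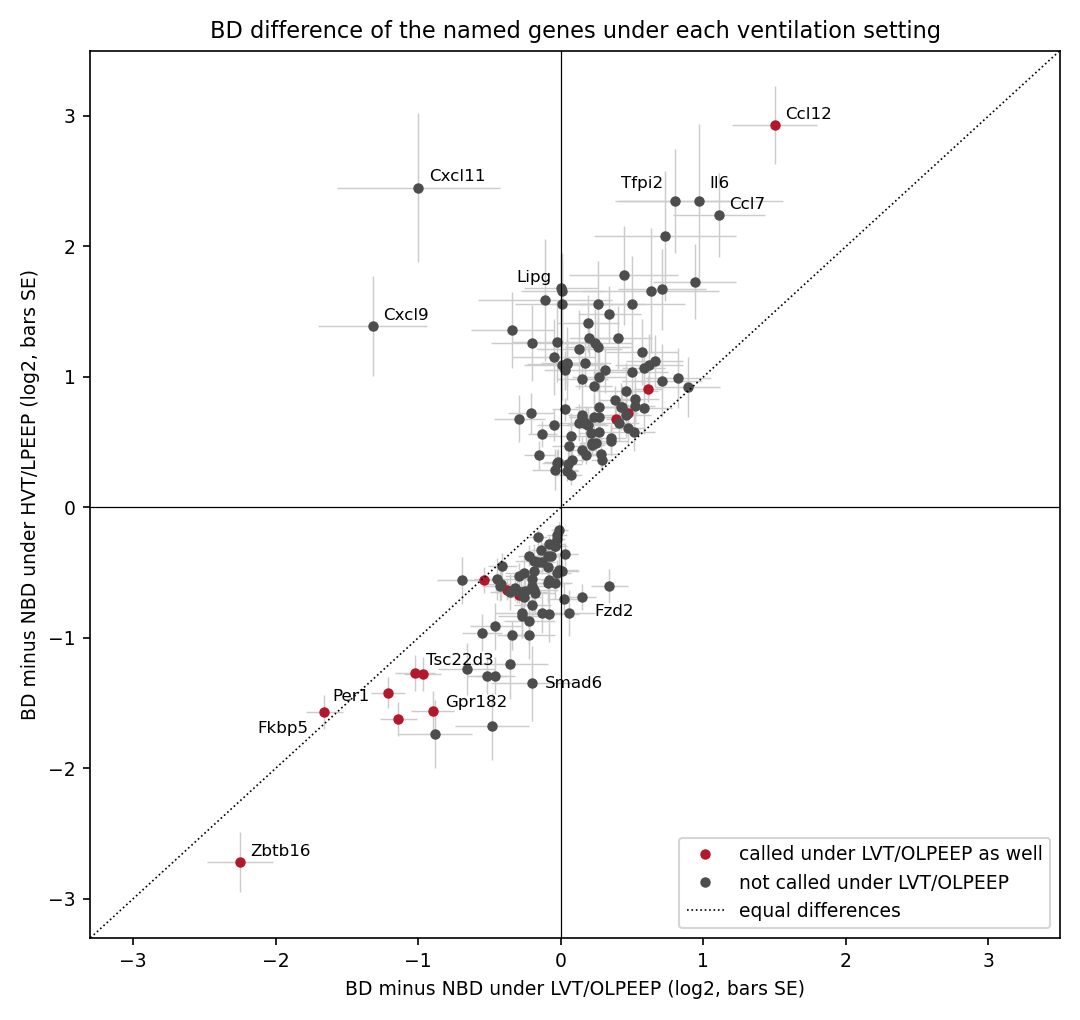
BD minus NBD difference of the genes named here under HVT/LPEEP (vertical axis) and under LVT/OLPEEP (horizontal axis), both log2 with bars of 1 SE. Most lie on the same side of 0 under both settings and farther from 0 under HVT/LPEEP; Fkbp5, Per1 and Zbtb16 lie near the line of equal differences, and Cxcl9 and Cxcl11 lie on opposite sides of 0.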

How the data were processed

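RNA of right lung was measured on 24 arrays, 1 per rat. The authors deposited 1 table of log2 signals, normalised across arrays before deposit (every array holds the same sorted values), and how probes were summarised is not given in these sources. Gene symbols came from the platform annotation, with 16592 features carrying 1 symbol and 2647 none, and older symbols were updated through the RefSeq rat gene table. Groups and animal numbers came from the labels. A model with 4 group means (20 residual degrees of freedom) was fitted to all 24 arrays with limma 3.58.1 in R 4.3.3 and moderated variances, two-sided, with Benjamini-Hochberg adjustment over 19239 features and a threshold of 0.05, and it was tested on simulated data. Samples labelled as replicates were separate rats. No low-signal filter was used.

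The comparison and the gene lists were chosen with earlier results of these data known. Lists are described by counts and medians without a test. Named were the 12 highest and 12 lowest called genes without overlap of the groups, the 6 smallest adjusted p in each direction, up to 4 members with the smallest p and 3 against the majority of a described list, and features called for the difference of the 2 BD differences. Other genes named with values are said to be chosen after these were seen. Members listed without values complete a count. Alternatives were other variance models, array weights, renormalisation, a filter on dim features, Holm correction, a minimum fold, a covariate for animal number, and leaving out rats singly or in pairs. Renormalisation could change nothing, since every array already held the same sorted values, so dependence on the normalisation was not tested. Some members of the lists are not reported here by name.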

Additional observations from a re-analysis of the deposited data

Results flagged for a closer look

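In 28 of 412 groups of 6 rats examined (166 genes and 40 list means, BD and NBD rats separately), 1 rat stood apart from the other 5 by a larger share of the range of the group than the critical value of Dixon for 6 values; chance alone gives such a value in about 1 in 20 groups. Among BD rats these were rat 37 for Ccl7 (11.47, against 12.02 to 12.22 in the others), Il1a (10.05, against 11.27 to 11.86) and Icam2 (10.03, against 9.25 to 9.48), rat 11 for RGD1563692 (10.27, against 10.88 to 11.1), Prdx6 (12.45, against 12.61 to 12.69) and Cxcl6 (9.1, against 8.24 to 8.53), and rat 22 for Scnn1a (10.74, against 11.42 to 11.72), Ezh1 (10.13, against 10.51 to 10.71) and the mean of Hedgehog, FGF and lung lineage factors (-0.3, against -0.1 to 0.01).

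Among NBD rats it was mostly rat 12. Its value was low for Zbtb16 (10.36, against 11.41 to 11.91), S1pr1 (11.57, against 12.36 to 12.52), Atp1b1 (12.31, against 12.81 to 13.01), Lifr (10.98, against 11.89 to 12.29), Fzd6 (9.62, against 10.12 to 10.28), Slc30a1 (9.29, against 9.64 to 9.79), Mapk6 (10.21, against 10.51 to 10.6) and Utp18 (9.99, against 10.23 to 10.32). It was high for Lif (10.11, against 9.08 to 9.32), Ctf1 (9.34, against 9.0 to 9.09), Sirt2 (11.51, against 11.17 to 11.26) and the mean of immediate early genes (0.39, against -0.47 to -0.17). The other NBD rats that stood apart were rat 34 for Ripk2 (9.96, against 10.38 to 10.51), Irf3 (10.24, against 10.79 to 10.99) and the mean of cardiac muscle markers (1.64, against -0.6 to -0.53), rat 13 for Birc2 (9.25, against 8.81 to 8.97), rat 33 for Hmgcs1 (10.62, against 10.16 to 10.31), rat 19 for Bhlhe40 (11.72, against 12.16 to 12.28) and rat 10 for Tsc22d3 (9.99, against 10.6 to 10.95).

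The limma test of the difference of differences called Fzd2 (-0.84) and Trim3 (-0.48) between the ventilation settings, each at an adjusted p of 0.0455. In 17 of the 24 fits that left out 1 rat, it called no feature.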

How the results depend on the processing

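No named gene reversed its direction under any of the 52 alternatives. Many of these could not reverse a gene, since they leave the difference between BD and NBD HVT/LPEEP lungs unchanged. Examples are another p adjustment or threshold, another moderation of the variance, renormalisation, and leaving out an LVT/OLPEEP rat. Most named genes were also chosen by their values in these data. With Holm correction in place of Benjamini-Hochberg, 180 features were called (50 higher, 130 lower), at an unadjusted p under 0.05 5340 (2306 higher, 3034 lower), and with at least a 1.5-fold change 563 (339 higher, 224 lower). Leaving out rats gave 1464 (without BD rats 22 and 26) to 3174 (without NBD rat 12 and BD LVT/OLPEEP rat 16) called features, 544 (without BD rats 22 and 26) to 1283 (without NBD rat 12) higher and 920 to 1905 lower ones (the same rats as for the total). The 15 fits that each left out a pair of BD HVT/LPEEP rats called 1464 to 2794 features. These pairs include the pair that died. The 2 features called for the difference between the settings were 0 with a trended robust or an unmoderated variance or with Holm correction, 1 without the 40% dimmest features or with at least a 1.5-fold change, 41 with array weights, 149 with animal number as a covariate and 2629 at an unadjusted p under 0.05. Leaving out rats gave 0 (for example without NBD rat 12) to 266 (without BD rats 24 and 37), and 20 without both NBD rat 12 and BD LVT/OLPEEP rat 16. The cause was not tested. Against 2771 features called between BD and NBD HVT/LPEEP lungs in the main fit, array weights gave 3723 (1561 higher, 2162 lower). A fit of only the 12 HVT/LPEEP arrays gave 1917 (779 higher, 1138 lower) and cannot estimate a difference between the settings. In that fit the interferon list had 9 higher members, proteasome subunits 5, and matrix, Wnt, adrenergic, histone and cholesterol genes had 3, 4, 5, 5 and 4 lower ones. With array weights 15 NF-kappaB genes, 11 pattern recognition, 15 immediate early, 17 proteasome and 20 ribosome biogenesis genes were higher, and 16 lineage and 11 type I genes lower. Of 4160 counts over lists and alternatives 704 moved by over 1.5 times, and of 8624 gene values 647 lost their call. No paired analysis was possible because no animal number occurs in more than 1 group. The arrays of the BD HVT/LPEEP rats that died are not identified, and the skull was opened only in BD rats. With 6 rats a group, death, surgery and balloon cannot be told apart.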
